A study of Mus musculus with 9 samples.

Results

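The comparison described here set 3 tumor libraries labelled anti-PD1 against 3 labelled IgG Control, 6 of the 9 libraries of the study. All of them came from skin tumors that YUMMER1.7 cells, a mouse melanoma line, formed after injection under the skin of C57BL/6J mice with an intact immune system. Treatment began once the tumors had reached a set small volume, and the 3 remaining libraries came from tumors treated with an antibody against B7-H3. The IgG group received an isotype control antibody, and nothing else distinguishes the groups in the labels. The stated purpose was to learn which immune cells occupy the treated tumors. Total RNA from bulk tumor was depleted of ribosomal RNA before sequencing. The labels do not give ages or sexes, do not say what replicates 1 to 3 share, and do not state that each library is from its own mouse, and the p-values below therefore reflect spread among these libraries alone, which may be technical.

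PD-1, encoded by Pdcd1, is an inhibitory receptor that activated T cells carry on their surface. Its ligands PD-L1 (Cd274) and PD-L2 (Pdcd1lg2) are made by tumor and myeloid cells, and their binding dampens signalling from the T cell receptor. An antibody that blocks the receptor is known to release cytotoxic T cells in responsive melanomas, which is usually accompanied by interferon gamma and its target genes.

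Levels are given as CPM, a gene's reads scaled to the size of its library by the TMM method, which centres on the typical gene, so every change is relative to that gene. The major satellite genes, which stand for repeated DNA next to centromeres, had been removed first, because they held between 87.0% and 92.0% of the reads in the IgG libraries but between 14.6% and 38.2% in the anti-PD1 libraries. Reads outside those genes numbered between 1252540 and 3546706 in the IgG libraries and between 5326276 and 9583684 in the anti-PD1 libraries. Reads on 1510 olfactory and vomeronasal receptor genes, which are hardly used outside sensory tissue, differed in the same way, from 765 to 4842 CPM in IgG and from 78.3 to 280 CPM with anti-PD1. They are called the receptor background below. Within IgG it was highest in replicate 3, then 1, then 2. The share of reads on genes encoded by mitochondria overlapped, from 1.72% to 3.23% in IgG and from 2.19% to 2.62% with anti-PD1.

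**Figure D1:**
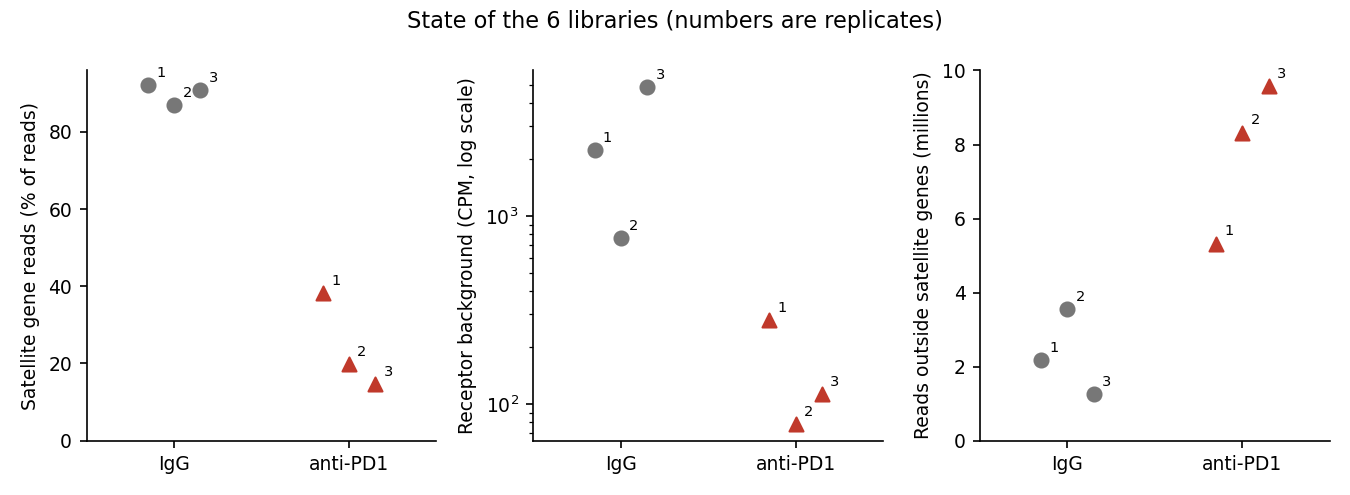
Each point is 1 library, numbered by replicate: the share of reads on satellite genes (percent), the receptor background (CPM, log axis) and the reads outside satellite genes. The groups do not overlap in any of these, with the lowest IgG library at 765 CPM of receptor background and the highest anti-PD1 library at 280 CPM.

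Of 13484 tested genes, 28 rose with anti-PD1 (0.208%) and 275 fell (2.04%) at an adjusted p under 0.05 in edgeR. Without adjustment, 1262 genes (9.36%) were higher and 1779 (13.2%) lower at p under 0.05. Changes of any size were positive in 6998 genes (51.9%) and negative in 6486. In 1776 genes (13.2%) every anti-PD1 library was above every IgG library, and in 1850 genes (13.7%) every one was below. The 28 that rose had a median level of 5.46 log2 CPM, and 17 of them lay at or above 5 log2 CPM. The 275 that fell had a median level of 1.68 log2 CPM, and 97 of them lay under 1 log2 CPM.

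The calls depended on the libraries and settings used, and the cause was not tested. None of the 28 rises passed without IgG replicate 1, without IgG replicate 3 or without any 1 of the anti-PD1 libraries, and of the 275 falls 11, 19, 12, 11 and 11 remained without IgG 1, IgG 3 and anti-PD1 1, 2 and 3 in turn. Leaving out IgG 2 instead gave 268 rises and 1492 falls, and leaving out anti-B7-H3 1, 2 or 3, which share the estimate of spread, gave 17 and 215, 3 and 78, or 7 and 125. With the receptor background as a covariate 0 of the 28 rises and 5 of the 275 falls remained, with that background subtracted 0 and 23, and with a mean of at least 20 reads required 0 and 21. Scaling by library totals without the satellite genes gave 162 rises and 365 falls around an all-gene median shifted by 0.21, and totals with the satellite genes counted in gave 12201 rises and 109 falls around a median shifted by 3.10 on the log2 scale.

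**Figure D2:**
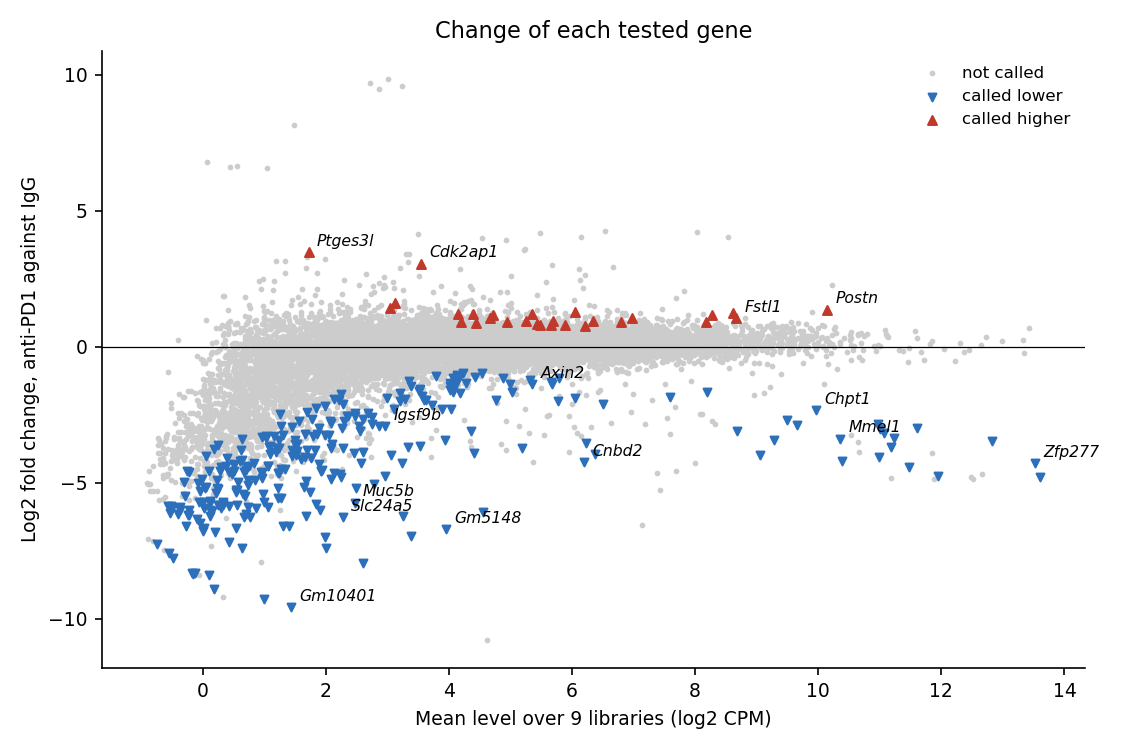
Each point is 1 of 13484 tested genes, by its mean level over 9 libraries (log2 CPM) and its log2 fold change with anti-PD1 against IgG. The 28 genes called higher sit mostly near a change of 1, while the 275 called lower spread to -9.57 and include both barely detected genes and some of the most abundant.

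The clearest rises were in genes of the extracellular matrix. Fstl1, a secreted follistatin-like glycoprotein of mesenchymal cells, was at 268, 315 and 258 CPM in the 3 IgG libraries and at 542, 656 and 527 CPM in the 3 anti-PD1 libraries. It rose by 1.03 ± 0.19 on the log2 scale (SE, adjusted p = 0.0346). The lowest anti-PD1 library was well above the highest IgG library. Postn, the matricellular protein periostin, was at 616, 767 and 645 CPM in IgG and at 1474, 2312 and 1414 CPM with anti-PD1. It rose by 1.36 ± 0.26 (adjusted p = 0.0368), and again the groups did not overlap. Fstl1 passed the threshold in 13 of 22 other ways of processing the data and Postn in 12, more than any other gene that rose apart from Rps15a, also at 12.

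Further matrix or secreted proteins rose. Lrrc17, a leucine-rich repeat protein, was at 38.7, 48.6 and 45.9 CPM in IgG and at 88.8, 153 and 78.9 CPM with anti-PD1, a rise of 1.27 ± 0.27 (adjusted p = 0.0436). Matn2, the matrix protein matrilin-2, rose by 0.91 ± 0.19 (adjusted p = 0.0436), and the serine protease gene Prss23 rose by 0.93 ± 0.20 (adjusted p = 0.0450). In each of these 3 genes every anti-PD1 library lay above every IgG library.

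Fibroblast and matrix genes as a list did not all move in 1 direction. Of 20 tested members, 2 rose (Fstl1 and Postn), against 0.208% of all tested genes. Positive changes were seen in 14, and the median was 0.14 against 0.02 over all tested genes. At an unadjusted p under 0.05, 6 were higher and 0 lower, against 9.36% and 13.2% of all tested genes. In 6 members every anti-PD1 library was above every IgG library and in 0 every one was below, against 13.2% and 13.7% of all tested genes. Fap, a surface protease of activated fibroblasts, was at 6.46, 7.02 and 12.8 CPM in IgG and at 25.7, 39.5 and 13.6 CPM with anti-PD1 (1.69 ± 0.40, adjusted p = 0.0524). Its values in the third anti-PD1 library and the third IgG library nearly met. Acta2, the smooth muscle actin of myofibroblasts, had a change of 1.02 ± 0.29 (adjusted p = 0.0763) without overlap. The collagen gene Col1a1 overlapped widely, from 553 to 2419 CPM in IgG and from 791 to 1537 CPM with anti-PD1, as did the proteoglycan gene Dcn, from 129 to 176 CPM in IgG and from 105 to 206 CPM with anti-PD1. In bulk tumor RNA, more cells of a type and more RNA per cell cannot be told apart.

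TGF-beta is a growth factor that drives matrix genes in fibroblasts, and none of the 18 tested genes of its ligands, receptors and targets passed the threshold. Their median change was 0.19, with 12 positive. The ligand gene Tgfb3 was at 56.6, 105 and 60.8 CPM in IgG and at 111, 122 and 120 CPM with anti-PD1 (0.65 ± 0.24, adjusted p = 0.143). The receptor gene Tgfbr1 had a change of 0.56 ± 0.21 (adjusted p = 0.146), and Smad7, a feedback inhibitor of the pathway, one of -0.69 ± 0.23 (adjusted p = 0.113). In these 3 genes the groups did not overlap. Bambi, the list member with the highest change, was at 1.10 ± 0.40 (adjusted p = 0.137).

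Ribosomal protein genes lay higher with anti-PD1 in most cases. Of 24 tested genes in the list of cytosolic ribosomal proteins, 23 had positive changes, with a median of 0.44. None passed the adjusted threshold, and 8 had an unadjusted p under 0.05, against 9.36% of all tested genes in that direction. Rpl32 came closest, at 277, 360 and 291 CPM in IgG and at 541, 930 and 453 CPM with anti-PD1 (1.05 ± 0.28, adjusted p = 0.0648).

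Rps15a and Rpl10, which are outside that list, passed the threshold. Rps15a, of the small subunit, was at 241, 286 and 209 CPM in IgG and at 590, 741 and 415 CPM with anti-PD1, a rise of 1.24 ± 0.26 (adjusted p = 0.0436). Rpl10, of the large subunit, was at 195, 267 and 247 CPM in IgG and at 518, 678 and 373 CPM with anti-PD1, a rise of 1.15 ± 0.26 (adjusted p = 0.0482). Neither gene overlapped between the groups. Ribosomal protein genes have many near-identical processed copies in the mouse genome, so their counts are uncertain where reads could be split.

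Other genes that rose have varied known roles. They include Eif3m, a subunit of a translation initiation factor named after its values were seen (1.05 ± 0.24, adjusted p = 0.0484), Mrps33 of the mitochondrial ribosome (1.19 ± 0.26, adjusted p = 0.0450), Tomm7 of the mitochondrial import complex (1.19 ± 0.26, adjusted p = 0.0453) and Ostc of the enzyme that adds sugar chains to new proteins (1.20 ± 0.27, adjusted p = 0.0484). Nup37, a nuclear pore subunit, went from 14.9, 15.7 and 17.1 CPM in IgG to 30.5, 47.8 and 28.2 CPM with anti-PD1 (1.17 ± 0.25, adjusted p = 0.0436). Fbxo3, a substrate receptor of a ubiquitin ligase, rose by 0.93 ± 0.18 (adjusted p = 0.0392), and Maoa, which oxidises monoamines, by 0.75 ± 0.17 (adjusted p = 0.0474). All of these genes were higher in each of the 3 anti-PD1 libraries than in any IgG library.

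Of the 28 genes, 3 were low or undetected in IgG. Cdk2ap1, a binding partner of the kinase CDK2, was at 0, 4.21 and 0 CPM in IgG against 19.6, 20.28 and 11.997 CPM with anti-PD1 (adjusted p = 0.0470). Ptges3l had 2 reads in all IgG libraries together and 82 in the anti-PD1 libraries, 10.9-fold higher with a 95% counting interval of 2.92 to 91.6 (adjusted p = 0.0474). Nnmt, which methylates nicotinamide, was at 5.46, 3.93 and 2.13 CPM in IgG and at 9.13, 17.1 and 11.01 CPM with anti-PD1 (1.61 ± 0.36, adjusted p = 0.0482).

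**Figure D3:**
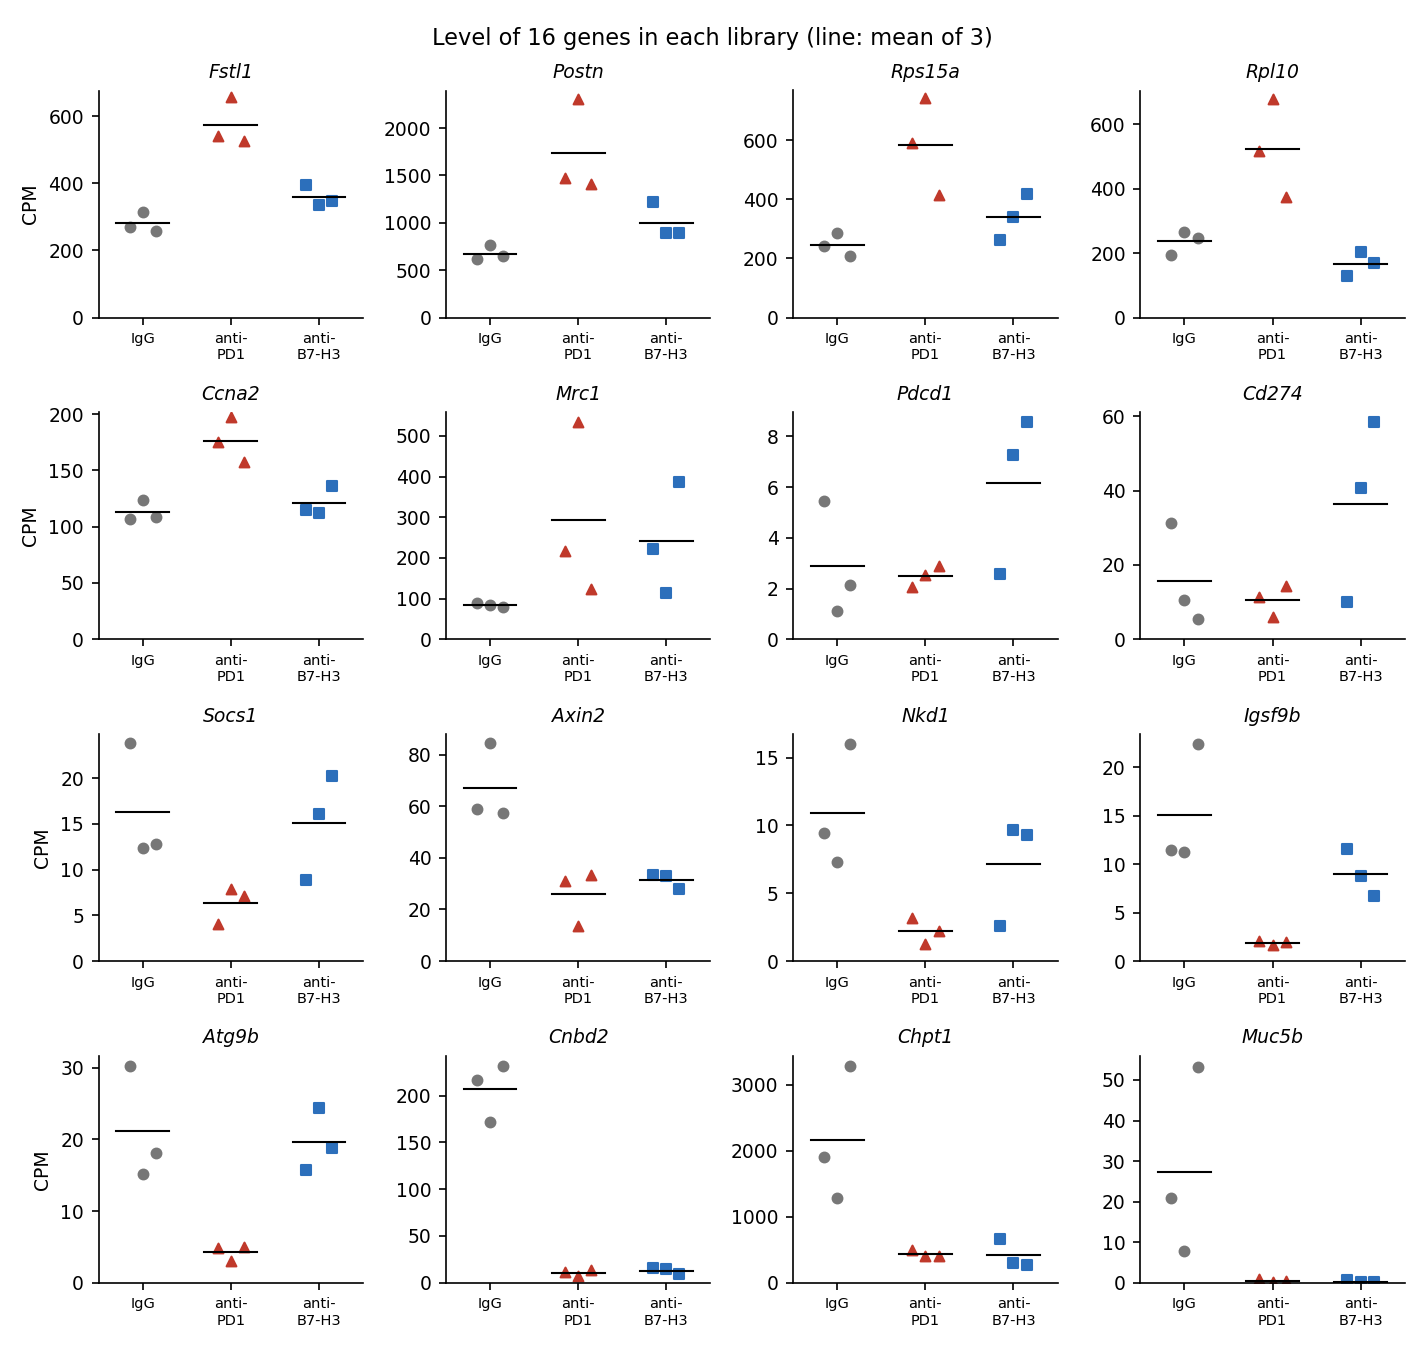
Level (CPM, linear axes from 0) of 16 genes in each of the 9 libraries, with points for replicates 1 to 3 from left to right and a line at the mean of each group. Fstl1, Postn, Rps15a and Rpl10 stand higher with anti-PD1 and Axin2, Cnbd2, Chpt1 and Muc5b lower, whereas Pdcd1 and Cd274 overlap between anti-PD1 and IgG.

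The targeted receptor was barely detected and did not differ. Pdcd1 was at 5.46, 1.12 and 2.13 CPM in IgG and at 2.05, 2.55 and 2.88 CPM with anti-PD1 (-0.18 ± 0.65, adjusted p = 0.905). The IgG libraries held only 17 reads of it in all, and the antibody acts on the protein, so its RNA is no check of the labels. Its ligand gene Cd274 was at 31.3, 10.7 and 5.33 CPM in IgG and at 11.4, 5.99 and 14.3 CPM with anti-PD1 (-0.64 ± 0.75, adjusted p = 0.654). The groups overlapped in both genes. Pdcd1lg2, for the other ligand, was below every IgG library in each anti-PD1 library, with a change of -1.19 ± 0.68 (adjusted p = 0.323). The range of IgG levels was wider than that of anti-PD1 levels for Pdcd1 and Cd274, with IgG replicate 1 highest.

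Among 13 tested genes of the PD-1 pathway and other inhibitory receptors of T cells, none passed the threshold, 6 were positive and the median was -0.18. Tox, a transcription factor of exhausted T cells, was at 6.46, 2.25 and 8.53 CPM in IgG and at 1.86, 0.887 and 2.28 CPM with anti-PD1 (-1.67 ± 0.64, adjusted p = 0.153). Lag3, an inhibitory receptor that binds MHC class II, was at 12.9, 5.90 and 8.53 CPM in IgG and at 3.72, 3.55 and 7.04 CPM with anti-PD1 (-0.90 ± 0.38, adjusted p = 0.194). Both genes overlapped between the groups.

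T cell genes gave no called change in either direction. For the T cell receptor complex and the kinases next to it, 8 of 16 tested genes were positive and 8 negative, with a median of 0.05. Cd3e, a chain that transmits the receptor's signal, was at 5.46, 0.562 and 5.33 CPM in IgG and at 1.68, 0.887 and 4.76 CPM with anti-PD1. Cd8a, the co-receptor of cytotoxic T cells, was at 11.4, 1.69 and 2.13 CPM in IgG and at 3.73, 2.66 and 6.35 CPM with anti-PD1. The IgG values spanned the anti-PD1 values in both genes, and the 6 T cell markers summed to between 12.1 and 39.7 CPM in IgG and between 17.3 and 26.4 CPM with anti-PD1.

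Genes of CD8 T cells and their cytotoxic products were more often negative than positive, 10 against 4 of 14 tested, with a median of -0.26 and none called. Eomes, a transcription factor of effector and memory CD8 T cells and NK cells, was at 3.97, 3.09 and 20.3 CPM in IgG and at 1.12, 1.11 and 1.88 CPM with anti-PD1 (-2.57 ± 0.75, adjusted p = 0.0841). Tbx21, for the related factor T-bet, was at 8.44, 2.25 and 9.60 CPM in IgG and at 0.745, 1.33 and 2.08 CPM with anti-PD1 (-2.15 ± 0.66, adjusted p = 0.0910). Prf1, for the pore-forming protein perforin, had a change of -0.85 ± 0.57 (adjusted p = 0.402). Every anti-PD1 library lay below every IgG library in these 3 genes. Klrd1, the list member with the highest change, went the other way at 1.69 ± 0.96 (adjusted p = 0.322), and its groups overlapped. The reads expected from the receptor background alone, by length, amounted to 47.0% of the IgG reads of Eomes, 39.4% for Tbx21 and 48.3% for Prf1, and its part in the differences was not tested.

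Regulatory T cell, NK cell and B cell genes gave no called change. Of 6 tested regulatory T cell genes 3 were positive, and of 6 tested NK cell genes 2 were, with medians of -0.11 and -0.08. The defining NK gene Ncr1 lay between 0.993 and 3.20 CPM in IgG and between 0.372 and 1.33 CPM with anti-PD1. Of 5 tested B cell and plasma cell genes 4 were positive, with a median of 1.21. Of these 2 had an unadjusted p under 0.05, against 9.36% of all tested genes in that direction. Igkc, the constant part of the kappa antibody chain, was at 7.45, 2.53 and 1.07 CPM in IgG and at 7.08, 61.7 and 15.9 CPM with anti-PD1 (2.86 ± 1.02, adjusted p = 0.151). Anti-PD1 replicate 2 stood apart there, and the groups overlapped.

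Macrophage genes lay higher with anti-PD1 in most cases without passing the threshold. Of 20 tested, 18 were positive and the median was 0.79. Of them 5 had an unadjusted p under 0.05, against 9.36% of all tested genes in that direction. The median level of the list was 1.145 in anti-PD1 replicate 2. It was 0.01 and -0.11 in replicates 1 and 3, within the IgG range of -1.005 to 0.14. The 4 macrophage markers summed to between 229 and 706 CPM in IgG and to 539, 1242 and 524 CPM in anti-PD1 replicates 1 to 3. Ccr2, the chemokine receptor of blood monocytes, was at 5.96, 6.74 and 8.53 CPM in IgG and at 15.6, 56.4 and 16.8 CPM with anti-PD1 (2.12 ± 0.58, adjusted p = 0.0777). Mrc1, a mannose receptor of tissue macrophages, was at 88.4, 83.5 and 78.9 CPM in IgG and at 217, 535 and 124 CPM with anti-PD1 (1.80 ± 0.56, adjusted p = 0.108). Both were without overlap, and anti-PD1 replicate 2 was the highest of the 6 libraries in each.

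Broader macrophage markers followed the same library. Adgre1, for the surface protein F4/80, was at 65.6, 53.7 and 25.6 CPM in IgG and at 80.5, 222 and 77.4 CPM with anti-PD1 (1.35 ± 0.50, adjusted p = 0.153). C1qa, a complement chain made by macrophages, overlapped, at 417, 316 and 101 CPM in IgG and at 214, 484 and 232 CPM with anti-PD1. Skeletal muscle genes were also highest in anti-PD1 replicate 2. Acta1, Ckm and Myh4 summed to between 23.5 and 89.4 CPM in IgG and to 106, 1960 and 899 CPM in anti-PD1 replicates 1 to 3. Replicate 3 stood far above replicate 1 there, whereas Adgre1 was at similar levels in those libraries. All 16 tested muscle genes were positive, with a median of 3.57, and none was called (smallest adjusted p = 0.289). The part of muscle in the macrophage values was not tested.

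The CD47 and SIRP-alpha pair, by which cells signal to macrophages not to engulf them, was higher in every anti-PD1 library than in any IgG library. Cd47 was at 71.0, 70.5 and 50.1 CPM in IgG and at 105, 97.3 and 98.6 CPM with anti-PD1 (0.63 ± 0.19, adjusted p = 0.0922). Sirpa, for the receptor on macrophages, was at 90.9, 75.02 and 41.6 CPM in IgG and at 102, 169 and 100 CPM with anti-PD1 (0.82 ± 0.31, adjusted p = 0.150). Neither change passed the threshold.

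Antigen presentation genes gave no called change. For MHC class II, which presents peptides to CD4 T cells, all 8 tested genes were positive with a median of 0.60, none was called and none was without overlap. H2-Ab1 was at 216, 87.4 and 57.6 CPM in IgG and at 129, 339 and 210 CPM with anti-PD1 (0.90 ± 0.54, adjusted p = 0.357). For MHC class I, 5 of 13 were positive, 1 was without overlap, none was called and the median was -0.06. Its shared light chain B2m was at 1002, 569.6 and 545 CPM in IgG and at 766, 986 and 924 CPM with anti-PD1 (0.34 ± 0.32, adjusted p = 0.567).

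Targets of interferon gamma did not move together. Of 19 tested genes, 8 were positive, none was called and the median was -0.02. Gbp5, a guanylate-binding protein of cell-autonomous defence, was at 323, 93.3 and 811 CPM in IgG and at 86.6, 34.9 and 75.1 CPM with anti-PD1 (-2.63 ± 0.70, adjusted p = 0.0805). Its IgG values took the order of the receptor background, and the part of that background was not tested. Socs1, a feedback inhibitor of cytokine signalling, was at 23.8, 12.4 and 12.8 CPM in IgG and at 4.10, 7.87 and 7.14 CPM with anti-PD1 (-1.35 ± 0.39, adjusted p = 0.0833). Each was below IgG in all 3 anti-PD1 libraries. The receptor gene Ifngr1 had the highest change of the list, 0.65 ± 0.26 (adjusted p = 0.172). In the list 1 gene was above IgG in every anti-PD1 library and 2 were below, against 13.2% and 13.7% of all tested genes. Targets of type I interferon were as mixed, with 11 of 20 positive and a median of 0.02, and so were chemokines that attract T cells, with 5 of 9 positive and none called. By the median level of each list in a library, IgG replicate 1 was the highest of the 6 libraries and IgG replicate 3 the lowest for MHC class I, for interferon gamma targets and for these chemokines.

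**Figure D4:**
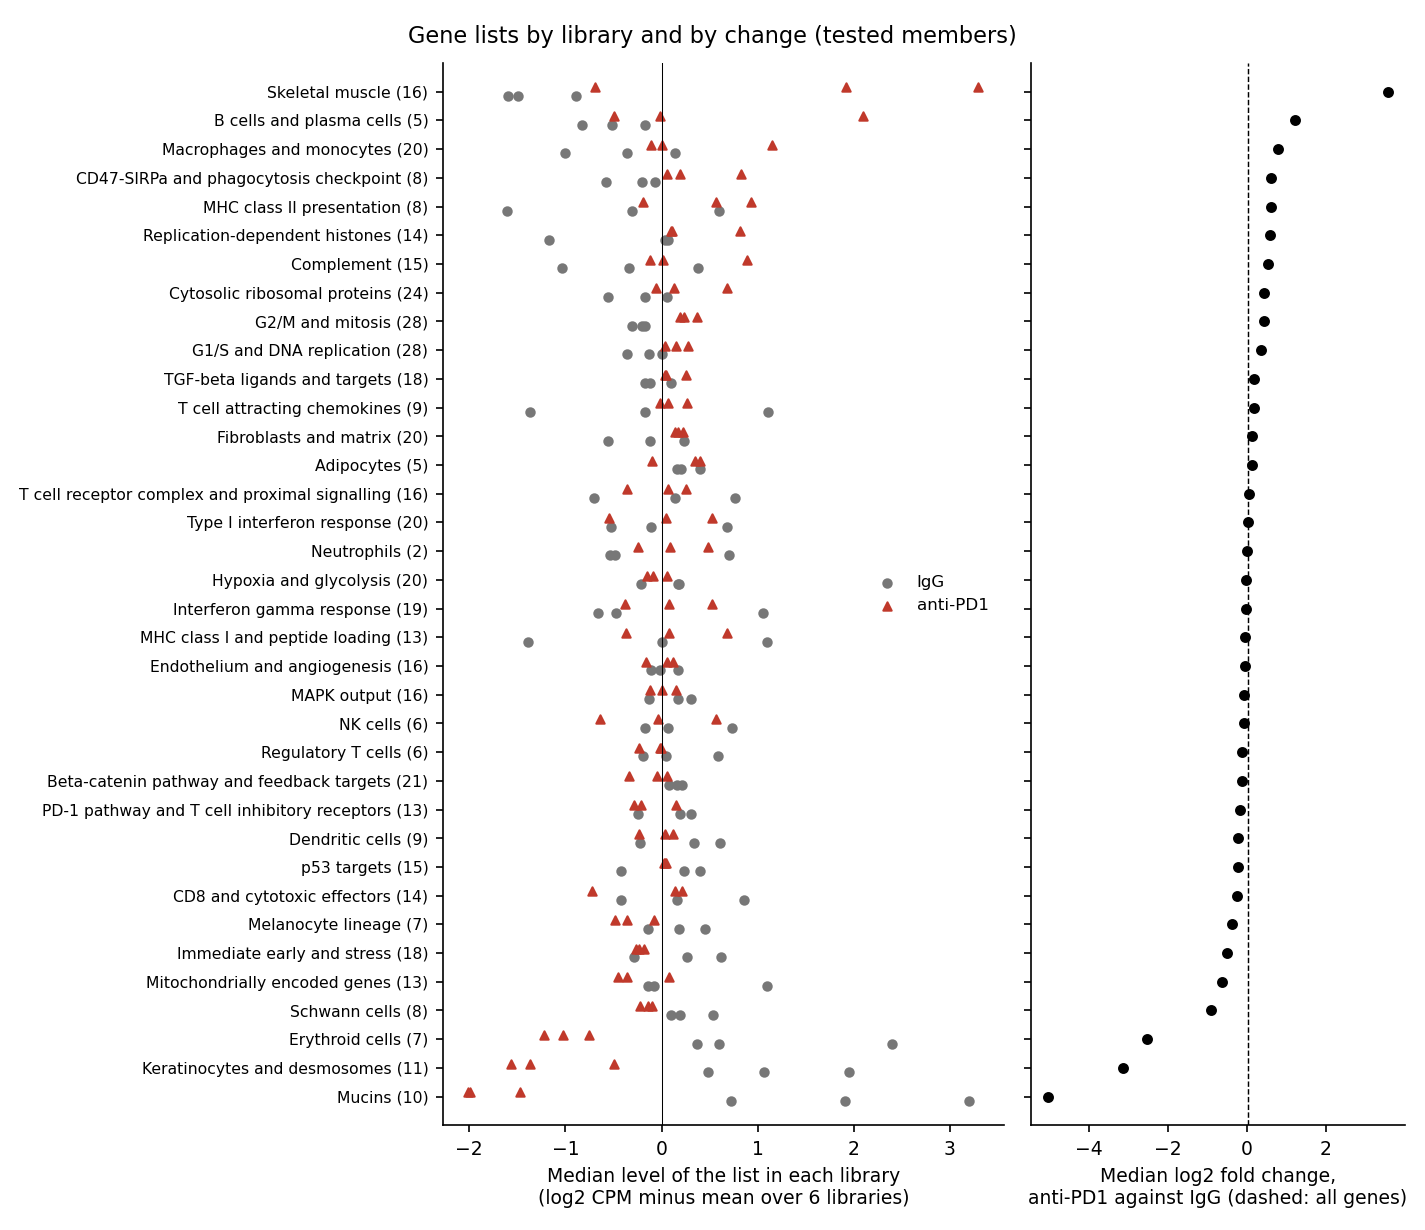
Left, the median level of each of 36 gene lists in each of the 6 libraries, as log2 CPM minus the gene's mean over them, and right, the median log2 fold change of the list with a dashed line at 0.02 for all tested genes. Numbers in parentheses are tested members. The groups do not overlap in the G2/M, G1/S, histone, CD47-SIRPa and skeletal muscle lists (higher with anti-PD1) or in the beta-catenin, Schwann cell, keratinocyte, mucin and erythroid lists (lower), and overlap in the others.

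Cell division genes shifted in 1 direction by small amounts. All 28 tested genes of G2 and mitosis were positive, with a median of 0.43 against 0.02 over all genes. Of them 15 had an unadjusted p under 0.05, where 9.36% of all genes did in that direction, and 14 had no overlap between the groups, against 13.2% of all genes, but none passed the adjusted threshold. The median level of the list in a library ran from -0.30 to -0.17 in IgG and from 0.19 to 0.37 with anti-PD1, so the groups did not overlap. Ccna2, the cyclin of S and G2 phases, was at 107, 124 and 109 CPM in IgG and at 175, 197 and 158 CPM with anti-PD1 (0.64 ± 0.17, adjusted p = 0.0692). Bub1, a kinase of the spindle checkpoint, was at 48.2, 63.2 and 73.6 CPM in IgG and at 115, 101 and 83.9 CPM with anti-PD1 (0.71 ± 0.21, adjusted p = 0.0871).

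Replication genes showed the same direction less uniformly. Of 28 tested genes of the G1/S transition and DNA replication, 22 were positive, with a median of 0.36 and none called. Pcna, the sliding clamp of DNA polymerase, was at 84.4, 101 and 102 CPM in IgG and at 141, 222 and 146 CPM with anti-PD1 (0.83 ± 0.24, adjusted p = 0.0829). Histone genes that are transcribed during replication were positive in 13 of 14 cases, with a median of 0.59 and none called, and here IgG replicate 3 stood apart with a list median of -1.17 against 0.03 and 0.06 in the other IgG libraries.

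Genes and feedback targets of the canonical Wnt pathway, whose effector is beta-catenin, were more often lower than higher. The list had 21 tested members, of which 15 were negative, and the median was -0.13. In it 2 fell, against 2.04% of all tested genes. At an unadjusted p under 0.05, 7 were lower and 2 higher, against 13.2% and 9.36% of all tested genes. Bambi had the highest change of the list, 1.10 ± 0.40 (adjusted p = 0.137). Axin2, which encodes a scaffold of the beta-catenin destruction complex and is itself induced by the pathway, was at 59.1, 84.6 and 57.6 CPM in IgG and at 31.1, 13.5 and 33.4 CPM with anti-PD1. It fell by 1.38 ± 0.31 on the log2 scale (adjusted p = 0.0475), and no anti-PD1 library reached an IgG library. Sfrp2, a secreted Wnt antagonist of stromal cells, fell by 1.96 ± 0.45 (adjusted p = 0.0499) with 1 overlapping library, at 7.45, 30.1 and 32.0 CPM in IgG and at 4.28, 8.202 and 4.96 CPM with anti-PD1. Each of the 2 calls held in 4 of 22 other ways of processing.

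Nkd1 and Notum, inhibitors that the pathway also induces, were lower too in every anti-PD1 library, short of the threshold. Nkd1, which binds Dishevelled, was at 9.44, 7.31 and 15.99 CPM in IgG and at 3.17, 1.22 and 2.18 CPM with anti-PD1 (-2.27 ± 0.57, adjusted p = 0.0585). Notum, an enzyme that inactivates Wnt ligands, was at 28.3, 14.05 and 14.9 CPM in IgG and at 5.59, 2.99 and 7.44 CPM with anti-PD1 (-1.84 ± 0.50, adjusted p = 0.0737). The transcript of beta-catenin itself, Ctnnb1, was higher in all 3 anti-PD1 libraries, at 522, 637 and 437 CPM in IgG and at 721, 857 and 685 CPM with anti-PD1 (0.50 ± 0.21, adjusted p = 0.181).

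Immediate early and stress genes, which cells switch on within minutes of a stimulus or of tissue handling, were mostly lower. Of 18 tested, 16 were negative, with a median of -0.52 and none called. Of them 6 had an unadjusted p under 0.05, against 13.2% of all tested genes in that direction. Nr4a1, an orphan nuclear receptor, was at 13.9, 8.99 and 10.7 CPM in IgG and at 5.96, 5.43 and 6.74 CPM with anti-PD1 (-0.88 ± 0.28, adjusted p = 0.102). Ier3 was at 39.2, 21.1 and 11.7 CPM in IgG and at 10.1, 9.42 and 7.04 CPM with anti-PD1 (-1.50 ± 0.56, adjusted p = 0.155). Neither overlapped between the groups.

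Among outputs of MAP kinase signalling, 11 of 16 tested genes were negative and the median was -0.08. Dusp4, a phosphatase that switches the kinases off, was at 22.3, 19.4 and 12.8 CPM in IgG and at 7.08, 5.65 and 10.01 CPM with anti-PD1 (-1.29 ± 0.32, adjusted p = 0.0573). Of 20 tested hypoxia and glycolysis genes 9 were positive. Vegfa, the main growth factor for blood vessels, was at 145, 109 and 81.0 CPM in IgG and at 70.8, 43.4 and 68.2 CPM with anti-PD1 (-0.89 ± 0.29, adjusted p = 0.105). Of 15 tested p53 targets 7 were positive, and Bbc3, for the death protein PUMA, was at 13.9, 8.15 and 14.9 CPM in IgG and at 4.10, 5.10 and 4.46 CPM with anti-PD1 (-1.39 ± 0.32, adjusted p = 0.0505). Dusp4, Vegfa and Bbc3 were without overlap, and none passed the threshold. Among the p53 targets Sesn1 went the other way, with a change of 1.13 ± 0.28 (adjusted p = 0.059). Of the MAP kinase outputs, 2 were above IgG in every anti-PD1 library and 1 was below, against 13.2% and 13.7% of all tested genes.

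The falls called in the most ways of processing were in a small set of genes that lay far lower in every anti-PD1 library than in any IgG library. Cnbd2, which encodes a cyclic nucleotide-binding protein of sperm, was at 217, 172 and 231 CPM in IgG and at 11.9, 7.32 and 13.4 CPM with anti-PD1. It fell by 4.24 ± 0.30 (adjusted p = 5.54e-05). Ptger1, a receptor for prostaglandin E2, was at 19.9, 32.3 and 18.1 CPM in IgG and at 0.745, 0.665 and 0.694 CPM with anti-PD1, a fall of 5.07 ± 0.38 (adjusted p = 7.46e-05). The predicted gene Gm5148 was at 53.6, 60.1 and 44.8 CPM in IgG and under 0.8 CPM in each anti-PD1 library, a fall of 6.70 ± 0.47 (adjusted p = 5.54e-05).

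Cnbd2, Ptger1, Gm5148 and 1810049J17Rik were the 4 genes that stayed called in all 22 other ways of processing the data, and LTO1, whose product helps build an iron-sulfur protein of the ribosome, did so in 21. Ptger1 and LTO1 are named because of that count, after their values were seen. LTO1 was at 53.1, 59.6 and 50.1 CPM in IgG and at 6.15, 5.99 and 6.84 CPM with anti-PD1 (-3.10 ± 0.21, adjusted p = 5.54e-05). The receptor background could account for between 1.07% and 5.96% of the IgG reads of these 5 genes. They were also low in the anti-B7-H3 libraries, where Cnbd2 was at 15.4, 14.4 and 8.83 CPM and LTO1 at 7.25, 5.02 and 6.69 CPM.

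The largest falls were in genes that lost all or nearly all reads. Gm10401 had 86 reads in IgG in all and 0 with anti-PD1, which makes it at least 108-fold lower when 3 reads over the group are taken as the floor (adjusted p = 0.00465). Masp2, a protease of the lectin pathway of complement, had 60 reads against 0 and was at least 75.2-fold lower (adjusted p = 0.0144). Gm26602 and Gm26566 had 2 reads each with anti-PD1, and were 226-fold lower (95% counting interval 61.1 to 1884) and 316-fold lower (86.1 to 2629).

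Several abundant genes fell by smaller amounts. Rrs1, a factor of ribosome assembly, was at 81.4, 59.6 and 96.0 CPM in IgG and at 35.8, 30.4 and 29.7 CPM with anti-PD1 (-1.29 ± 0.20, adjusted p = 0.0270). Kat8, a histone H4 acetyltransferase, was at 78.0, 49.2 and 67.2 CPM in IgG and at 27.8, 27.0 and 28.1 CPM with anti-PD1 (-1.22 ± 0.23, adjusted p = 0.0361). Sp140, a chromatin reader of immune cells, fell by 1.99 ± 0.32 (adjusted p = 0.0291), and Gtpbp3, which modifies mitochondrial transfer RNA, by 1.36 ± 0.23 (adjusted p = 0.0291). In these 4 genes the anti-PD1 libraries lay close together and below all IgG libraries.

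Chpt1, which makes phosphatidylcholine, was among the highest, at 1905, 1286 and 3293 CPM in IgG and at 491, 399 and 403 CPM with anti-PD1 (-2.33 ± 0.41, adjusted p = 0.0346). Its IgG values took the order of the receptor background, highest in replicate 3 and lowest in replicate 2. That order was found in 195 of the 275 falls (70.9%), in none of the 28 rises and in 23.8% of all tested genes, and its cause was not tested.

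A group of falls carried repeated sequence. A stretch of 25 bases that also occurs in transcripts of at least 20 other genes was found in the coding sequence of 34 of the 273 falls with a sequence (12.5%), in none of the 28 rises, and in 4.78% of all tested genes. The stretches are printed below because the most abundant of these genes share them. In Gm11032, Gm10160, Gm4707 and Sirt5 the 25 bases in capitals are 1 and the same stretch, reverse-complemented in Gm10160, and it occurs in 1222 other genes. It is part of the B1 element, a short interspersed repeat of rodents. Each line gives 70 bases of the coding sequence, 5′ to 3′ on the gene's strand, from the GENCODE M21 transcripts of GRCm38.
Gm11032: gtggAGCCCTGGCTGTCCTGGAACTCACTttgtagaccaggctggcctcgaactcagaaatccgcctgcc
Gm4707: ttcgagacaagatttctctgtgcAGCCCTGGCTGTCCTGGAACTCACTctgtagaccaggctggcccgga
Sirt5: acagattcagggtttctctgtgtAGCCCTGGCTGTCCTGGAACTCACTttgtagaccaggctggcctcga
Gm10160: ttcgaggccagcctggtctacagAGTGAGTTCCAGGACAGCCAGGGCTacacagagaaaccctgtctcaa
Gm21897 and Gm21962, a second pair, share another stretch that occurs in 68 other genes.
Gm21897: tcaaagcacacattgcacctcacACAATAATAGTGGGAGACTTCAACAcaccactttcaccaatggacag
Gm21962: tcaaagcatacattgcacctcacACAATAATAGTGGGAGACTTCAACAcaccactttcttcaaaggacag

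These genes were chosen after their values were seen. Gm11032 lies on chromosome 11 (GRCm38, 4620067 to 4621698), Gm4707 on chromosome 17 (71458327 to 71459918), Gm10160 on chromosome 7 (81855533 to 81855794) and Sirt5 on chromosome 13 (43365496 to 43395203). Sirt5, a mitochondrial desuccinylase, was listed at 15073, 7063 and 31965 CPM in IgG and at 2178, 904.5 and 1791 CPM with anti-PD1 (-3.47 ± 0.66, adjusted p = 0.0370). Gm11032 was at 4970, 2282 and 10416 CPM in IgG and at 638, 216 and 521 CPM with anti-PD1 (-3.68 ± 0.67, adjusted p = 0.0368). The order of the 6 libraries was the same in both genes, with IgG 3 highest and anti-PD1 2 lowest.

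The second pair behaved likewise. Gm21897 on chromosome 16 (15317458 to 15318957) was at 24015, 8223 and 73395 CPM in IgG and at 2263, 513 and 1063 CPM with anti-PD1 (-4.78 ± 1.01, adjusted p = 0.0482). Reads of such genes could have come from any copy of the repeat, so these values are uncertain as measures of the named genes.

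Defining genes of the melanocyte lineage were at or near 0 in both groups, although the tumors are labelled as melanoma. The identity of the tumor cells was not tested. Tyrp1, Mlana, Dct, Tyr and Pmel, which serve pigment synthesis and its organelle, each lay at or under 4.27 CPM in IgG and at or under 0.745 CPM with anti-PD1. None of these 5 had enough reads to be tested. Mitf, the transcription factor of the lineage, was detected in all 6 libraries, at 15.9, 14.6 and 22.4 CPM in IgG and at 20.9, 15.5 and 10.7 CPM with anti-PD1. Of 7 tested lineage genes 1 fell: Slc24a5, an ion exchanger of the pigment organelle, was at 21.9, 14.05 and 30.9 CPM in IgG and at 0.931, 0 and 0.0991 CPM with anti-PD1 (-6.26 ± 0.83, adjusted p = 0.0105). Sox10 was at 8.94, 1.40 and 9.60 CPM in IgG and below 0.8 CPM in all 3 anti-PD1 libraries (-3.81 ± 1.17, adjusted p = 0.0936).

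Genes known from tissues that surround or lie far from a tumor made up other falls. Whether their reads came from such tissues was not tested. Mucin genes, which encode the large glycoproteins of mucous surfaces, had a median of -5.04. They gave 8 falls among 10 tested, against 2.04% of all tested genes. Muc5b was at 20.9, 7.87 and 53.3 CPM in IgG and at 0.931, 0.222 and 0.397 CPM with anti-PD1 (-5.74 ± 0.88, adjusted p = 0.0275). In 9 of the 10 the IgG libraries took the order of the receptor background, and by their coding length that background predicts a median of 73.1% of their IgG reads. Its part in the mucin falls was not tested.

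Keratinocyte genes were negative in all 11 tested cases, with a median of -3.14 and 2 falls, where 2.04% of all tested genes fell. Dsp, for the desmosome protein desmoplakin, was at 9.93, 14.6 and 23.5 CPM in IgG and at 2.05, 0.443 and 1.19 CPM with anti-PD1 (-3.71 ± 0.78, adjusted p = 0.0436). Krt10, a keratin of the upper epidermis, fell by 3.37 ± 0.74 (adjusted p = 0.0463). The background predicts 77.4% of the IgG reads of Dsp and 33.8% of those of Krt10. Krt14, the keratin of basal cells, was at 0.993, 23.04 and 5.33 CPM in IgG and under 0.6 CPM in every anti-PD1 library, and was not tested.

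Genes of red blood cells were also negative in all 7 tested cases, with a median of -2.54. They gave 2 falls, where 2.04% of all tested genes fell. Hbb-bt, an adult beta-globin, was at 43.7, 16.3 and 33.1 CPM in IgG and at 5.77, 6.65 and 8.13 CPM with anti-PD1 (-2.14 ± 0.42, adjusted p = 0.0383). Alas2, the first enzyme of heme synthesis in red cells, was at 6.46, 7.31 and 32.0 CPM in IgG and at 1.12, 1.66 and 1.59 CPM with anti-PD1 (-3.26 ± 0.74, adjusted p = 0.0482). For Hbb-bt the background predicts 2.11% of IgG reads and for Alas2 21.5%. Globin genes are near-identical copies of one another, so reads could be split between them.

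The same fit compared anti-PD1 with anti-B7-H3, which is also the difference between the 2 changes against IgG. No gene was called by edgeR (smallest adjusted p = 0.155), 864 genes had an unadjusted p under 0.05, and DESeq2 called 21. Of the 10 genes with the smallest p, Atg9b, Igsf9b, Crmp1 and Klhl21 had fallen with anti-PD1 against IgG, and Rpl10 and Lrrc17 had risen. Atg9b, a membrane protein of autophagy, was at 30.3, 15.2 and 18.1 CPM in IgG, at 4.84, 3.10 and 5.06 CPM with anti-PD1 and at 15.7, 24.4 and 18.8 CPM with anti-B7-H3. It fell by 2.29 ± 0.33 against IgG (adjusted p = 0.0181), and against anti-B7-H3 the difference was -2.19 (unadjusted p = 1.77e-05, adjusted p = 0.155). The anti-B7-H3 values lay within the IgG range.

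Igsf9b, a cell adhesion molecule, was at 11.4, 11.2 and 22.4 CPM in IgG, at 2.05, 1.66 and 1.98 CPM with anti-PD1 and at 11.5, 8.72 and 6.76 CPM with anti-B7-H3. It fell by 2.91 ± 0.38 against IgG (adjusted p = 0.00954), with an unadjusted p of 4.86e-05 against anti-B7-H3. On the other side, Rpl10 was at 129, 205 and 168 CPM with anti-B7-H3, below each anti-PD1 library (1.64, adjusted p = 0.164), and Ptn, a heparin-binding growth factor, was at 79.5, 106 and 84.2 CPM in IgG, at 185, 190 and 129 CPM with anti-PD1 and at 73.3, 50.2 and 50.4 CPM with anti-B7-H3 (1.54, adjusted p = 0.155). In these 4 genes no anti-PD1 library overlapped an anti-B7-H3 library.

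**Figure D5:**
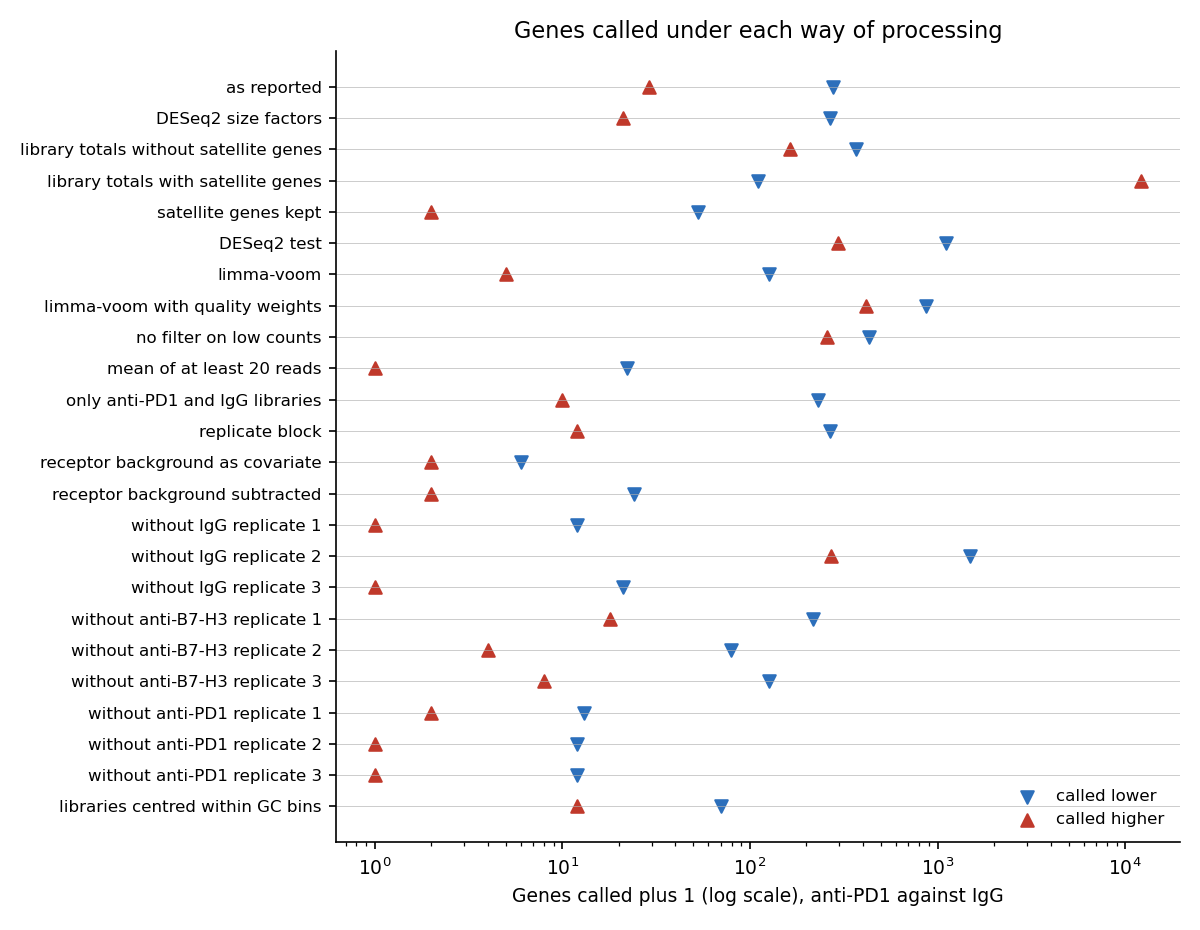
The number of genes called higher and lower with anti-PD1 than with IgG, plus 1 and on a log axis, under the reported processing (28 and 275), 22 other ways of processing and 1 chosen after seeing the data. Counts ranged from 0 to 12201 higher and from 5 to 1492 lower.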

How the data were processed

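Per the file headers, the authors deposited per library a table of estimated counts (expected reads per transcript, not whole numbers), TPM and effective length (other values), and the estimated counts were used. TPM as deposited by the authors served no test. The program that made these estimates is not stated in the labels or headers. The submitters' processing notes name FastQC 0.11.8 and GRCm38. Of 58083 transcripts, 57473 matched GENCODE M21. Listed lengths equal coding sequences for 92.2%, so lengths are coding lengths. Counts were summed over 22195 genes and rounded, and 12 satellite genes were removed. In R 4.3.3, edgeR 4.0.16 filtered genes (filterByExpr), scaled by TMM and fitted a robust quasi-likelihood model with a term for group across the 9 libraries. P-values were Benjamini-Hochberg adjusted with 0.05 as threshold, and the code was tested on simulated data. Lists (36) are described by counts and medians. The comparison, lists and rules were chosen with earlier results of these data known. Genes named are, per direction, the 12 largest called changes with at least 1 log2 CPM and no overlap, the 10 smallest p at 5 log2 CPM or more, checkpoint genes, cell type markers, up to 5 members of each list by p, and the 10 smallest p against anti-B7-H3, and others are said to be chosen after their values were seen, as are rises beyond the rule (Eif3m). Counting intervals are exact binomial (95%) and cover counting error only. Alternatives used DESeq2 1.42.0 and limma 3.58.1.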

Additional observations from a re-analysis of the deposited data

How the results depend on the processing

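Against 28 rises and 275 falls as reported, DESeq2 size factors gave 20 and 267, library totals without the satellite genes 162 and 365, and totals with them 12201 and 109. Keeping the satellite genes gave 1 and 52, the DESeq2 test 293 and 1102, limma-voom 4 and 126, and limma-voom with quality weights 416 and 862. No filter on low counts gave 257 and 431, and a mean of at least 20 reads 0 and 21 (816 and 1059 at an unadjusted p under 0.05). Fitting only the anti-PD1 and IgG libraries gave 9 and 229, the receptor background as covariate 1 and 5, and its subtraction 1 and 23. Leaving out 1 library gave 0 to 268 rises and 11 to 1492 falls. Centring the libraries within 20 bins of coding GC content, chosen after seeing the data, gave 11 and 69. Deviations of same-numbered libraries had correlations of -0.10, 0.16 and -0.12, within the range of the other pairs (-0.25 to 0.26). With so few libraries this cannot settle what the numbers share, and the replicate block gave 11 and 267. Against anti-B7-H3, 0 genes were called as reported, 25 with totals that include satellite genes, 21 with DESeq2, 1 with quality weights and 4 without a filter. Of the 36 lists, 15 had a median above that of all genes, 23 without a filter and 9 with the covariate. Of the named genes past the threshold, Gm10160 alone changed sign in any alternative, to 0.12 with the covariate, while 878 values kept the call and 798 lost it. The causes were not tested. IgG depth outside the satellite genes limits genes under 1 log2 CPM.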

Other observations

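Coding GC content moved with the change. The median log2 change was 0.27 in the quintile of tested genes with the lowest GC content, then 0.15, 0.07 and -0.09, and -0.39 in the quintile with the highest, which held 119 of the 275 falls and 0 of the 28 rises. By coding length it ran from 0.22 in the shortest quintile to -0.13 in the longest. Replication-dependent histone genes are short and GC-rich: after libraries were centred within bins of GC content, their median change was 1.35 with 4 of 14 called, against 0.59 and 0 called before. With that centring Fstl1 was the 1 of the 28 rises that stayed called.

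Transcripts encoded by mitochondria lay lower with anti-PD1 in 10 of 13 cases, with a median of -0.63 and none called. IgG replicate 3 stood apart, with a list median of 1.10 against -0.07 and -0.14 in IgG replicates 1 and 2. The list medians with anti-PD1 were 0.08, -0.45 and -0.36, so the groups overlapped. mt-Nd6, a subunit of respiratory complex I on the strand opposite to most mitochondrial genes, was at 593, 332 and 1421 CPM in IgG and at 170, 64.0 and 90.6 CPM with anti-PD1 (-2.85 ± 0.66, adjusted p = 0.0587). Its IgG values took the order of the receptor background.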
